A study of Mus musculus with 6 samples.

Results

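Genes of antigen presentation were followed in hepatic CD4 T cells of mice with metabolic dysfunction–associated steatohepatitis (MASH). They were H2-K1, H2-D1, B2m, Tap1, Tap2, Tapbp and Nlrc5 of the MHC class I pathway and H2-Aa, H2-Ab1 and Cd74 of the class II pathway, picked by gene symbol from the 28430 symbols of the count table, in which all 10 were present. Bulk RNA-Seq was available for 3 libraries labelled WT and 3 labelled dKO, all from mice on a high-fat diet that lacks choline and is low in methionine (CD), a diet that induces MASH. The dKO animals carried floxed alleles of the nuclear receptors Nr4a1 and Nr4a2 (fl/fl for both) and a Cd4Cre transgene, in which the Cd4 promoter drives Cre and so deletes both genes in T cells, CD8 T cells included. The labels give the other genotype only as WT, and the age and sex of the animals behind these libraries are not stated there. The methods describe 3 independent biological replicates, so p-values reflect how far these 6 libraries vary.

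MHC class I molecules present peptides made inside the cell to CD8 T cells. They consist of a heavy chain, here H2-K1 or H2-D1, and the light chain beta-2 microglobulin, encoded by B2m, and nearly all nucleated cells carry them. Peptides from the proteasome enter the endoplasmic reticulum through the transporter formed by Tap1 and Tap2, and tapasin, encoded by Tapbp, bridges the transporter and empty class I molecules while a peptide is chosen. NLRC5 is the transactivator of class I genes and CIITA that of class II genes, and both act through the same proteins bound at a conserved promoter module, while interferon gamma raises both pathways through JAK kinases. Class II molecules present peptides from taken-up proteins to CD4 T cells. H2-Aa and H2-Ab1 encode the alpha and beta chains of I-A. Cd74 encodes the invariant chain, which occupies the groove before a peptide does and is cut by cathepsin S. Mouse T cells are known for abundant class I and for little or no class II of their own.

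The libraries held 5747744 to 11078184 counted reads, of which 15694 genes passed the filter on low counts, all 10 presentation genes included. Gene totals of the deleted genes did not fall in the libraries labelled dKO. Nr4a1 was read at 329.5, 678.9 and 820.8 CPM (counts scaled to a common library total) in WT and at 713.2, 1037 and 641.6 CPM in dKO, and Nr4a2 at 160.1, 285.5 and 234.9 CPM against 478.3, 541.2 and 392.4 CPM, which edgeR called higher in dKO (adjusted p = 0.0308). The totals cover the whole gene, and no source used here names the exons between the floxed sites, so every direction below rests on the labels. Of the T cell markers, Cd4 among them, 10 were tested and 0 were called by edgeR, by DESeq2 or by limma-voom. At an unadjusted p under 0.05 edgeR had 3 of the 10, beside 19.2% of all genes tested. Cd8a and Cd8b1, which define CD8 T cells, were higher in dKO, with a summed level of 198.7 to 236.9 CPM in WT and 296.5 to 338.0 CPM in dKO. In bulk samples, fewer cells of a type and less RNA per cell cannot be told apart.

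The promoters of the presentation genes were searched for elements that these pathways are known to share. They are given here because the deleted receptors are transcription factors and because the order of these elements can be compared between the genes. RefSeq promoters on GRCm38.p6 were at hand for 6 of the 10 genes, H2-K1, H2-D1, B2m, Tap1, Tapbp and H2-Aa, and not used here for Tap2, Nlrc5, H2-Ab1 and Cd74. Each line runs from 180 bases before to 10 bases after the annotated start of transcription, 5′ to 3′ on the gene's strand, with matches to the searched motifs in capitals:
H2-K1, chr17:34000324-34000513, minus strand: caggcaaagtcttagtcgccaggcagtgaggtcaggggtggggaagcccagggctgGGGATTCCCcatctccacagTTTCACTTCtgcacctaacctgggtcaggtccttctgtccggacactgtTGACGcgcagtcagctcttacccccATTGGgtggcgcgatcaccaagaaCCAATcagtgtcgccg
H2-D1, chr17:35262914-35263103, plus strand: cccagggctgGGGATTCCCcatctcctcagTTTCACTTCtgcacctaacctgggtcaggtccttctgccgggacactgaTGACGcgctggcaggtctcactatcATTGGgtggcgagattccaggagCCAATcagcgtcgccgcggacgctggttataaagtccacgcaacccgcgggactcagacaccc
B2m, chr2:122147507-122147696, plus strand: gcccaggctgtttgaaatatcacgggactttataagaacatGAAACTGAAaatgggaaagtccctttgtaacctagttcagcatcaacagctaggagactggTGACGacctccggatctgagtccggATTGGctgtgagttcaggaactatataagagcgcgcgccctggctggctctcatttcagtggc
Tap1, chr17:34187376-34187565, plus strand: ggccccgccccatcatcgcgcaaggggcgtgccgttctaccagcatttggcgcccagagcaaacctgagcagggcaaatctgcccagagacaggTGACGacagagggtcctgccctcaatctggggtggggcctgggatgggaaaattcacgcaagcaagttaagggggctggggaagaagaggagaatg
Tapbp, chr17:33919298-33919487, plus strand: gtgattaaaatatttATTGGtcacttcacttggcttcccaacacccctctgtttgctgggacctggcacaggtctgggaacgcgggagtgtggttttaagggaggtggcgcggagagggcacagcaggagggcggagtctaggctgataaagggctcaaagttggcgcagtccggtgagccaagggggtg
H2-Aa, chr17:34287814-34288003, minus strand: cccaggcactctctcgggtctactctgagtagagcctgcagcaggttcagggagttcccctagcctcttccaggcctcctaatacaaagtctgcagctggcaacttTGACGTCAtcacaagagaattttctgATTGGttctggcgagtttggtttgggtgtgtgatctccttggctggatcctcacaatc
The motifs were searched on both strands from 250 bases before to 50 bases after the start, so a match on the opposite strand stands as its reverse complement. CCAAT, the letters of the Y box bound by NF-Y, was present in all 6 promoters and in 37.4% of the 32851 RefSeq promoters of that length. TGACG, the CREB half-site in the X box region, was present in 5 of the 6, all but Tapbp, and in 20.8% of promoters. In H2-Aa it occurred on both strands as the overlapping palindrome TGACGTCA. In H2-K1, H2-D1, B2m and H2-Aa a CCAAT lay downstream of a TGACG. The order differed in Tap1, where CCAAT began at base -222, outside the printed line, and TGACG at -86. In Tapbp the CCAAT matches began at -248 and -165, with no TGACG. The NF-kappaB element GGGATTCCC was found in H2-K1 and H2-D1 and in 116 of the 32851 promoters (0.353%). The interferon-responsive element, searched as GAANNGAAA or GAAANNGAA, was found in H2-K1, H2-D1 and B2m and in 14.8% of promoters. AAAGGTCA, the monomer element of the Nr4a receptors (1.51% of promoters), was not matched in these 6 windows. A match is a description of letters and not a bound site.

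**Figure D1:**
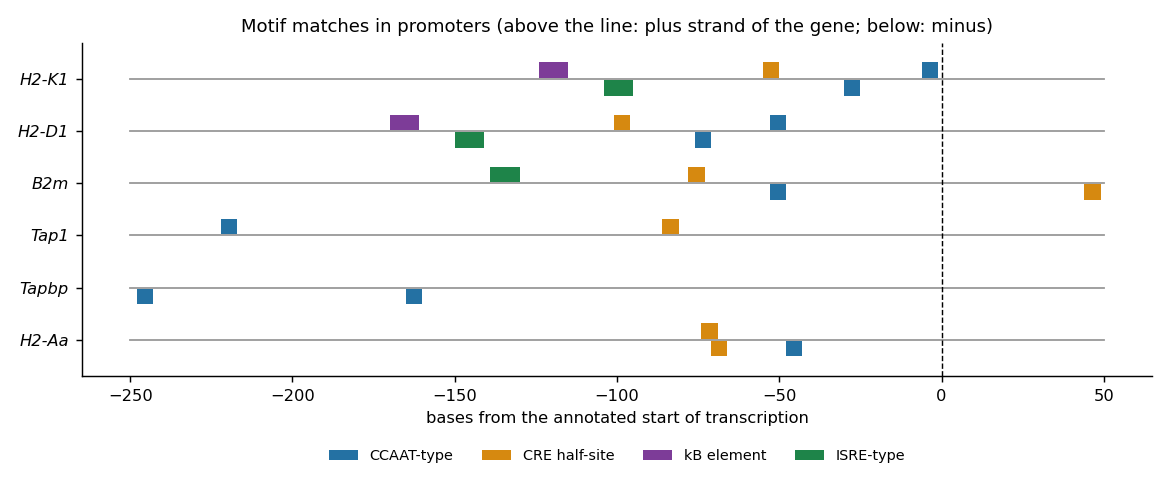
Motif matches in the 6 RefSeq promoters, with bases from the annotated start of transcription on the horizontal axis and 1 line per gene. Boxes above a line lie on the gene's strand and boxes below it on the other strand. H2-K1 and H2-D1 carry the same 5 matches in the same order.

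H2-K1 and H2-D1 carried the same elements in the same order. Against their annotated starts these were displaced by 46 bases, except the CCAAT on the gene's strand, which began at -6 in H2-K1 and -53 in H2-D1. Without gaps, 180 of 254 aligned bases of the promoters were identical (70.9%). RefSeq gave 2 starts for H2-K1, and start 2 was used for the printed line and the drawing. With start 1 the displacement was larger, and 176 of 240 aligned bases were identical (73.3%). Of the 10 genes, 7 lie on chromosome 17 (GRCm38). In the GENCODE annotation H2-K1 spans chr17:33996017-34000347 on the minus strand, Tapbp chr17:33915899-33929292 and H2-D1 chr17:35262730-35267499 on the plus strand. Between them lie Tap1 (chr17:34187553-34197225), Tap2 (chr17:34203527-34216321), H2-Ab1 (chr17:34257689-34269419) and, on the minus strand, H2-Aa (chr17:34282744-34287823). B2m spans chr2:122147686-122153083, Nlrc5 spans chr8:94434356-94527272 and Cd74 lies on chromosome 18. The RefSeq starts used for the printed Tapbp, H2-D1 and H2-K1 promoters lie inside these GENCODE spans. Tap1 overlaps the proteasome gene Psmb9 on the other strand and Tapbp overlaps Zbtb22 on the same strand. No source used here states whether counting used strand, so reads in those overlaps cannot be told apart.

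Per kilobase of transcript, class I genes spanned a wide range and class II chains lay at its foot. In WT the order was B2m at 5202 ± 288 CPM per kilobase (SD, n = 3), H2-K1 at 2689 ± 344, H2-D1 at 1225 ± 178, Tap1 at 59.6 ± 9.38, Tapbp at 58.3 ± 2.61, Tap2 at 46.7 ± 1.60, Cd74 at 39.5 ± 29.7, Nlrc5 at 26.1 ± 1.98, H2-Ab1 at 3.19 ± 2.66 and H2-Aa at 2.21 ± 2.10. Tap1 and Tapbp did not differ beyond their spread, and neither did Cd74 from Tap2 or Nlrc5, nor H2-Ab1 from H2-Aa. In dKO, Tap1 (79.3 ± 6.40), Tapbp (79.2 ± 2.00) and Cd74 (78.9 ± 5.75) lay within 1 SD of one another, and the class II chains were again last, with H2-Aa at 0.853 ± 0.286 and H2-Ab1 at 0.624 ± 0.303 CPM per kilobase. H2-K1, H2-D1 and B2m together took 1.03% to 1.25% of all counted reads in a library.

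**Figure D2:**
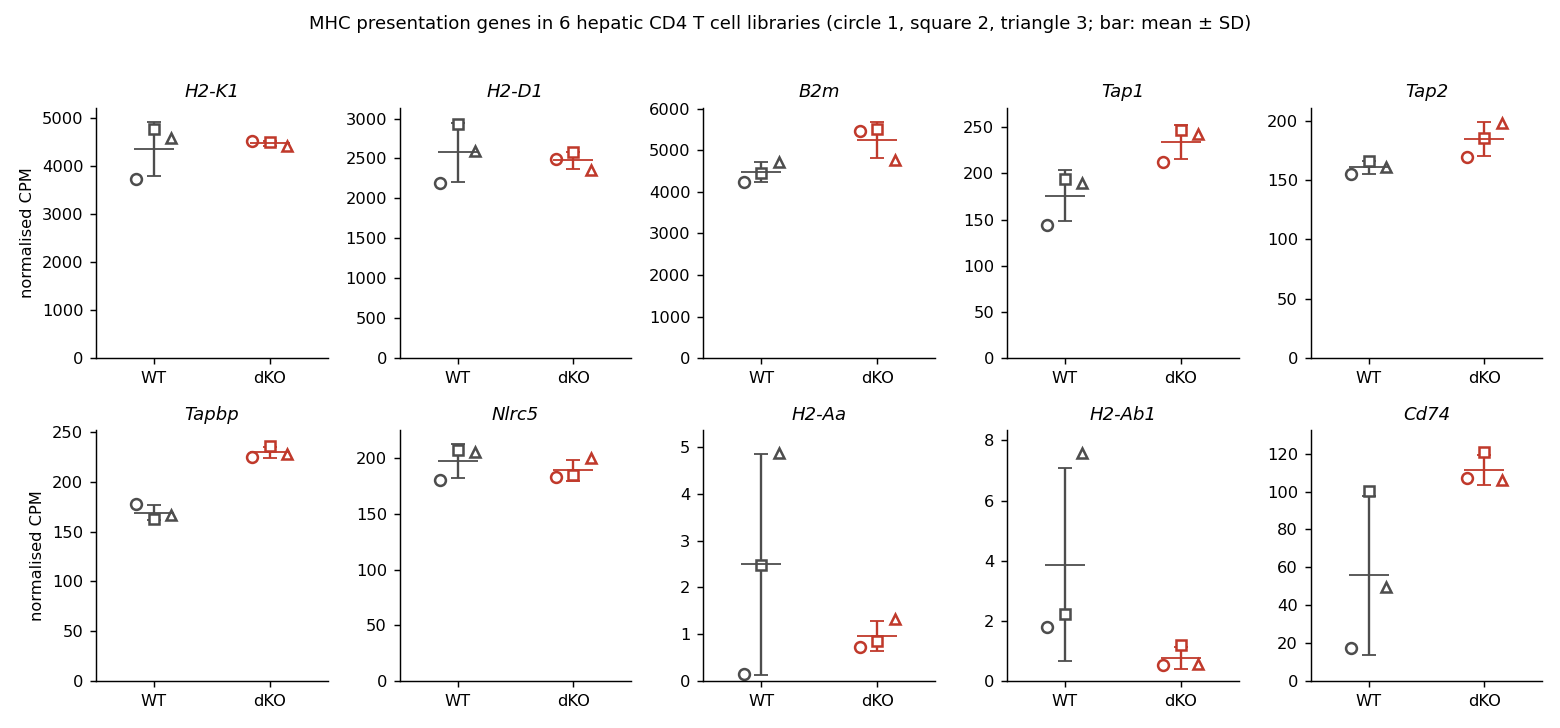
Normalised CPM of the 10 presentation genes, 1 panel per gene, with each of the 3 WT and 3 dKO libraries as a point and the mean ± SD as a bar; each vertical axis starts at 0. Tapbp is above all WT libraries in all dKO libraries with a narrow spread, while Cd74, H2-Aa and H2-Ab1 vary widely among the WT libraries.

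The loading machinery held the only presentation gene that passed the test. Tapbp, the tapasin gene, was read at 177.5, 162.9 and 166.8 CPM in WT and at 224.5, 235.9 and 228.2 CPM in dKO. All dKO libraries were above all WT libraries, and the gap was larger than the spread within either group. Tapbp rose by 0.44 ± 0.10 on the log2 scale (SE, n = 3 per group), which is 1.36-fold (95% interval 1.17 to 1.57), with an adjusted p of 0.0295 by edgeR's quasi-likelihood test with Benjamini-Hochberg adjustment. It was the 1 of 10 presentation genes that was called, beside 3.31% of all genes tested. Called higher were 1 of 10, beside 2.15%, and called lower 0 of 10, beside 1.17%. DESeq2 called H2-Ab1 lower besides Tapbp higher, limma-voom called Tapbp alone, and at an unadjusted p under 0.05 edgeR had 3 of the 10 (Tapbp, Tap1 and H2-Ab1), beside 19.2% of all genes. The Tapbp call was lost, with log2 differences of 0.415 to 0.458, without library WT 2 (adjusted p = 0.0675), WT 3 (0.0969), dKO 1 (0.109), dKO 2 (0.128) or dKO 3 (0.0682), fits that hold 5 libraries, and over all alternatives the adjusted p was 0.00879 to 0.62.

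The transporter genes were also higher on average in dKO but did not pass the test. Tap1 was read at 144.0, 194.1 and 189.5 CPM in WT and at 212.4, 246.9 and 243.0 CPM in dKO. The dKO libraries lay above the WT libraries, of which WT 1 was well below the others, and the log2 difference was 0.41 ± 0.13 (1.33-fold, 95% interval 1.10 to 1.61, adjusted p = 0.0989 by edgeR). Tap2 was read at 154.9, 165.9 and 161.0 CPM in WT and at 169.2, 185.8 and 198.0 CPM in dKO. The groups did not overlap, though dKO 1 was close to WT 2, and the log2 difference was 0.20 ± 0.10 (interval of the fold 0.984 to 1.34, adjusted p = 0.314 by edgeR). The products of both genes are needed in equal parts in the transporter. The ratio of Tap1 to Tap2 reads within a library was 0.930, 1.17 and 1.18 in WT and 1.26, 1.33 and 1.23 in dKO, where all dKO values exceeded all WT values (log2 difference 0.23, two-sided exact permutation p = 0.1, the smallest that 3 against 3 libraries allow). Without WT 1 that log2 difference was 0.11.

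In the list of 14 other loading and trimming genes, which contains chaperones, the immunoproteasome subunits and the peptidase Erap1, 0 were called in either direction by edgeR, DESeq2 or limma-voom. Their median log2 difference was 0.15, beside -0.01 over all genes tested. An unadjusted p under 0.05 by edgeR was found for 3 of the 14, all higher in dKO, beside 19.2% of all genes tested. Tapbpl, a tapasin relative that edits the bound peptide, was read at 50.1, 70.0 and 61.6 CPM in WT and at 83.8, 85.2 and 71.1 CPM in dKO. Its groups did not overlap, dKO 3 being only just above WT 2, with a log2 difference of 0.40 ± 0.13 (adjusted p = 0.116 by edgeR). Sec61a1, a subunit of the translocation channel of the endoplasmic reticulum, differed by 0.28 ± 0.10 on the log2 scale (adjusted p = 0.141) and the chaperone calnexin, Canx, by 0.24 ± 0.10 (adjusted p = 0.227).

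The class I heavy chains were at nearly the same level in both groups. H2-K1 was read at 3719, 4763 and 4576 CPM in WT and at 4515, 4495 and 4418 CPM in dKO. The dKO values lay inside the WT range, whose lowest value came from WT 1, and the fold was 1.03 (95% interval 0.823 to 1.29, log2 difference 0.04 ± 0.15, adjusted p = 0.919 by edgeR). H2-D1 was read at 2189, 2938 and 2599 CPM in WT and at 2489, 2578 and 2359 CPM in dKO. Here too the dKO libraries lay inside the WT range (fold 0.961, 95% interval 0.771 to 1.2, log2 difference -0.06 ± 0.15, adjusted p = 0.879). The sign of the H2-K1 difference turned without WT 1 (log2 -0.07) and that of H2-D1 without WT 2 (0.05). Some 8.79% of the 50-base stretches of the H2-K1 transcript and 14.3% of those of H2-D1 also occur in other genes, so their counts are uncertain to that extent. H2-K1 shared most with H2-D1, H2-Q1 and H2-T23, and H2-D1 with H2-Q1, H2-Q7 and H2-Q6.

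B2m, the light chain, was read at 4232, 4462 and 4727 CPM in WT and at 5475, 5502 and 4754 CPM in dKO. The groups did not overlap, but dKO 3 stood only just above WT 3, and the fold of 1.17 had an interval of 0.944 to 1.46 (log2 difference 0.23 ± 0.14, adjusted p = 0.423 by edgeR). Reads of B2m over those of H2-K1 plus H2-D1 gave 0.716, 0.579 and 0.659 in WT and 0.782, 0.778 and 0.701 in dKO. The dKO 3 value fell below that of WT 1, and the log2 difference of 0.21 had a two-sided exact permutation p of 0.2. The H2-K1 to H2-D1 ratio was 1.62 to 1.76 in WT and 1.74 to 1.87 in dKO, overlapping, with a log2 difference of 0.10 and an exact permutation p of 0.2.

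Nlrc5, the class I transactivator, was read at 180.6, 207.5 and 205.6 CPM in WT and at 183.3, 184.9 and 200.4 CPM in dKO. The groups overlapped throughout (fold 0.958, 95% interval 0.819 to 1.12, log2 difference -0.06 ± 0.10, adjusted p = 0.806 by edgeR). Among other class I and class I-like heavy chains, 20 of 22 in the table were tested and 0 were called by edgeR, DESeq2 or limma-voom. Their median log2 difference was 0.15, and 2 had an unadjusted p under 0.05 by edgeR, beside 19.2% of all genes tested. Cd1d1, which presents lipids, differed by 0.36 ± 0.13 (adjusted p = 0.155), the neonatal Fc receptor Fcgrt by -0.82 ± 0.34 (adjusted p = 0.200) and H2-T23, the Qa-1 gene, by 0.22 ± 0.12 (adjusted p = 0.329). For the 10 H2-Q and H2-T genes of the list for which this was computed, 8.03% to 44.7% of 50-base stretches are shared with other genes, so reads may have been split among them.

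**Figure D3:**
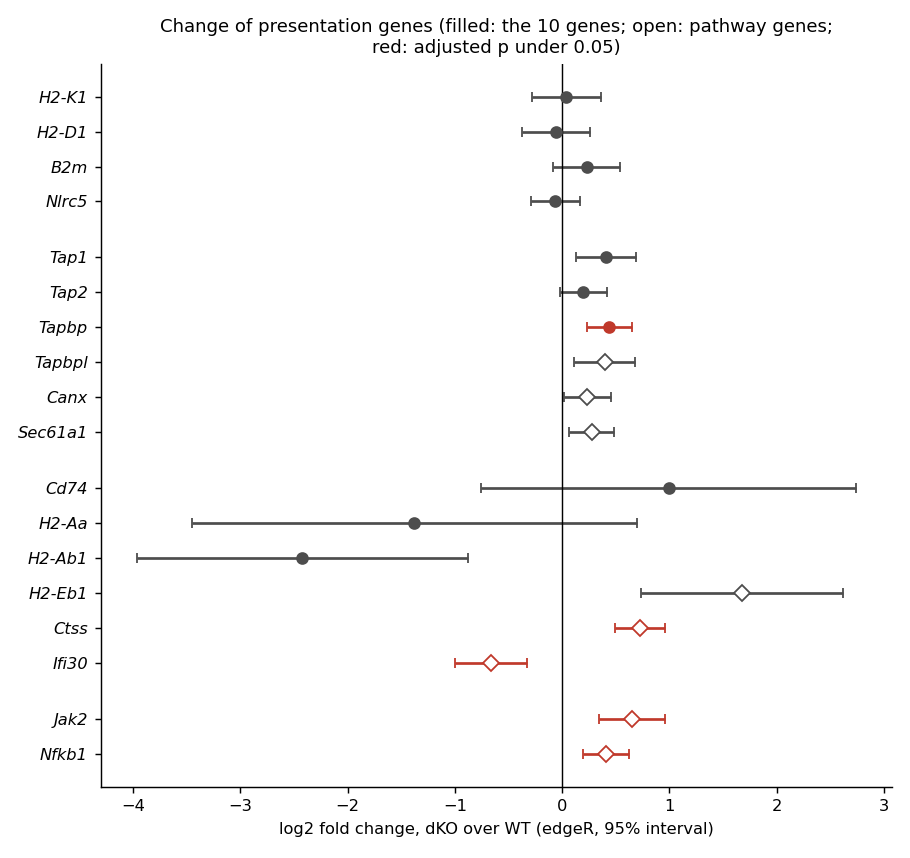
Log2 fold change of dKO over WT with its 95% interval by edgeR for the 10 presentation genes (filled circles) and for 8 genes of their pathways (open diamonds), grouped as heavy and light chains with Nlrc5, loading genes, class II genes and control genes; red marks an adjusted p under 0.05. Tapbp at 0.44 is the only filled red point, and the class II genes have the widest intervals.

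The class II genes were low, with differences of both signs, none of them called by edgeR. Cd74 was read at 17.1, 100.2 and 49.7 CPM in WT and at 107.0, 120.7 and 106.2 CPM in dKO. All dKO libraries were above all WT libraries and close to one another, whereas WT values differed by 5.85-fold with WT 1 lowest. The fold of 1.99 had an interval of 0.593 to 6.70 (log2 difference 0.996 ± 0.650, adjusted p = 0.501 by edgeR). Without WT 2 the log2 difference was 1.71 and without WT 1 it was 0.57, neither called. H2-Ab1 rested on 13, 18 and 81 reads in WT and on 3, 7 and 5 reads in dKO, which is 1.79, 2.23 and 7.58 CPM against 0.536, 1.18 and 0.553 CPM. All dKO libraries were below all WT libraries, of which WT 3 stood far above the rest, and the gene passed the filter through its WT libraries alone. Its log2 difference was -2.43 ± 0.68 (fold 0.186, 95% interval 0.0639 to 0.543), with an adjusted p of 0.0914 by edgeR. The call was gained without WT 1 (adjusted p = 0.017) and in DESeq2 (0.00835), and without WT 3 the log2 difference was -1.43 (adjusted p = 0.18, over a range of 5.83e-04 to 0.825 among all alternatives).

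H2-Aa rested on 1, 20 and 52 reads in WT and on 4, 5 and 12 in dKO, or 0.138, 2.48 and 4.87 CPM against 0.714, 0.844 and 1.33 CPM. WT 1 was the lowest of the 6 libraries and WT 3 the highest, so the groups overlapped (log2 difference -1.38 ± 0.88, fold interval 0.0913 to 1.62, adjusted p = 0.458 by edgeR). Without WT 1 the gene was called lower in dKO (log2 -1.88, adjusted p = 0.0207, over 0.0207 to 0.956 among the alternatives), and without WT 2 or WT 3 it no longer passed the filter. With all 6 libraries, 2 WT libraries (WT 2 and WT 3) and 1 dKO library reached the filter level. H2-Aa thus passed mainly through the WT libraries where it was high, so the call without WT 1 is a description only. The read ratio of the alpha to the beta chain, H2-Aa to H2-Ab1, was 0.0769, 1.11 and 0.642 in WT and 1.33, 0.714 and 2.40 in dKO. These overlapped. Cd74 exceeded H2-Ab1 by 9.54, 44.9 and 6.56 reads per read in WT and by 199.7, 102.1 and 192.2 in dKO. The log2 difference of 3.48 is a description only, since H2-Ab1 passed the filter through the WT libraries alone and the dKO ratios rest on its 3, 7 and 5 reads.

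**Figure D4:**
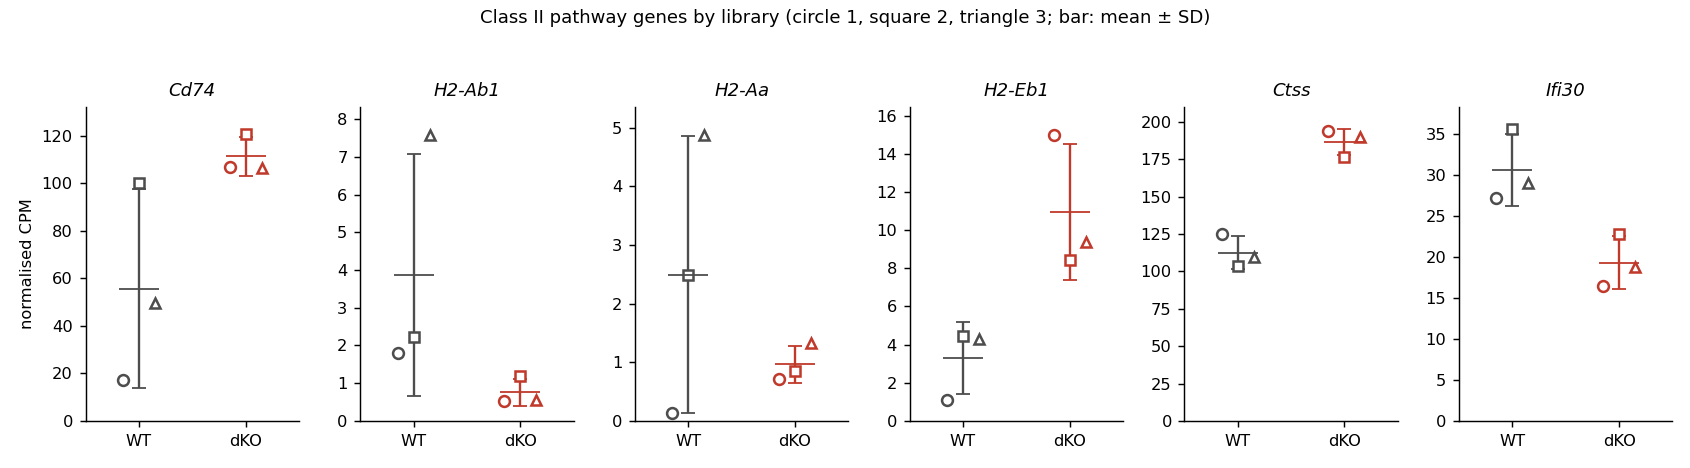
Normalised CPM of Cd74, H2-Ab1, H2-Aa, H2-Eb1, Ctss and Ifi30 in the 3 WT and 3 dKO libraries (points) with the mean ± SD (bars), 1 panel and 1 vertical axis from 0 per gene. Cd74, H2-Eb1 and Ctss are above all WT libraries in dKO, whereas H2-Ab1 and Ifi30 are below them.

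H2-Eb1, the beta chain of the other class II molecule I-E, was singled out after its values were seen. It was read at 1.10, 4.46 and 4.30 CPM in WT and at 15, 8.44 and 9.40 CPM in dKO. All dKO libraries were above all WT libraries, the opposite of H2-Ab1 (log2 difference 1.68 ± 0.42, adjusted p = 0.065 by edgeR, 0.0136 without WT 1, over 5.64e-05 to 0.578 among the alternatives). Of the 13 tested class II pathway genes outside the 10, edgeR and limma-voom called 1 higher and 1 lower, with a median log2 difference of 0.15 by edgeR. Over all genes tested edgeR called 2.15% higher and 1.17% lower. DESeq2 called 3 higher (Ctss, H2-Eb1 with an adjusted p of 5.59e-04, and the protease gene Lgmn, named here for that call) and 1 lower. Ctss, cathepsin S, which cuts the invariant chain, was read at 125.1, 103.3 and 109.3 CPM in WT and at 193.6, 176.5 and 189.5 CPM in dKO. Its groups were well apart, and Ctss rose by 0.73 ± 0.11 on the log2 scale (adjusted p = 0.00385), a call that leaving out any 1 library kept. Ifi30, the lysosomal thiol reductase that unfolds proteins for class II loading, was read at 27.2, 35.6 and 29.1 CPM in WT and at 16.4, 22.8 and 18.8 CPM in dKO. Every dKO library was below every WT library, and Ifi30 fell by 0.66 ± 0.16 on the log2 scale (adjusted p = 0.0392 by edgeR), although leaving out WT 2, WT 3 or any dKO library ended the call (adjusted p up to 0.178). Ciita, the class II transactivator, also named after its values were seen, rested on 16, 32 and 26 reads in WT and 28, 9 and 35 in dKO, which overlapped (log2 0.28 ± 0.40, adjusted p = 0.764).

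Markers of other cells that carry class II were read at low levels. B cell markers, 13 in the table, summed to 17.3 to 21.2 CPM in WT and 18.4 to 26.8 CPM in dKO, with 1 to 5 of them at 0 in a library. Of the 5 tested, Cd79b was higher in all dKO libraries (log2 difference 1.17, adjusted p = 0.0699 by edgeR) and the others overlapped. Cd79a, on 2 to 6 reads per library and not tested, was lower in all dKO libraries. The 16 macrophage and Kupffer cell markers summed to 3.18 to 6.20 CPM in WT and 3.43 to 8.04 CPM in dKO, with 6 at 0 in all libraries. Dendritic cell markers, 11 in the table, had a summed level of 31.2 to 52.3 CPM in WT and 23.2 to 27.3 CPM in dKO, with 2 to 4 at 0, but did not move as 1 group. Xcr1 (13.3, 10.04 and 11.6 against 3.57, 5.06 and 4.20 CPM) and Itgax (2.07, 2.23 and 2.34 against 0.179, 0.169 and 0.111 CPM) were called lower in dKO by edgeR. Itgax rested on 1 read in each dKO library and passed the filter through its WT libraries alone, so its call is a description only. DESeq2 called Xcr1 but not Itgax. Zbtb46, a transcription factor of conventional dendritic cells, lay the other way, at 7.32, 10.04 and 6.74 CPM in WT and 11.6, 14.3 and 12.3 CPM in dKO, without overlap (log2 difference 0.67, unadjusted p = 0.0067, adjusted p = 0.0963 by edgeR), while Flt3 and Siglech overlapped between the groups. Siglech, a plasmacytoid dendritic cell marker, was at 22.5 CPM in WT 3, the library highest in H2-Aa and H2-Ab1, and at 2.53 to 4.82 CPM in the others. With the dendritic cell marker level as a covariate the log2 difference of H2-Ab1 was 0.91 and that of H2-Aa 0.56, neither called, a fit in which 3 genes in all were called. The covariate includes Itgax and Xcr1, both called lower in dKO in these same libraries. It therefore cannot separate the marker level from the group, and the fit is a description only. Hepatocyte markers summed to 7.87 to 17.2 CPM in WT and 23.4 to 33.9 CPM in dKO, and liver sinusoidal endothelial markers, of cells that also present on class II, to 47.1 to 66.4 CPM and 66.5 to 71.2 CPM. Each gap came from 1 gene. Without Trf, the transferrin gene, the 10 other hepatocyte markers summed to 3.73 to 6.82 CPM in WT and 5.23 to 8.84 CPM in dKO, and without Stab1 the 6 other endothelial markers to 40.5 to 65.0 CPM and 56.2 to 57.9 CPM, both overlapping. Most of the endothelial sum was Pecam1, at 37.4 to 63.0 CPM in WT and 53.2 to 56.9 CPM in dKO, so the sum hardly reflects the other markers. The part of these cells in the class II differences was not tested.

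Library WT 1 stood apart in these genes. It was the lowest of the 6 libraries in 8 of the 10 presentation genes, the exceptions being Tapbp and H2-Ab1, while it was the lowest in 20.3% of all genes tested. It also differed from the other WT libraries in Xist, the noncoding RNA of the inactive X chromosome, at 1656 CPM against 133.0 and 97.1 CPM in WT 2 and WT 3, while dKO libraries had 1899, 796.1 and 1914 CPM. The Y-linked Ddx3y was at 32.2, 253.8 and 340.5 CPM in WT and 16.4, 279.6 and 29.9 CPM in dKO. It was lowest in the libraries with the most Xist (WT 1, dKO 1 and dKO 3). Library dKO 2 held both, at 796.1 CPM of Xist and 279.6 CPM of Ddx3y, and the reason was not tested. The WT and dKO groups were therefore not balanced for sex-linked transcripts. With Xist as a covariate Tap1 was called higher (log2 0.67, adjusted p = 0.0142, over 0.0142 to 0.743 among the alternatives) and Tapbp was not (log2 0.40, adjusted p = 0.115), and the part of sex in the differences was not tested further.

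The control genes were in part higher in dKO. Of 19 genes for the promoter-bound complex and interferon gamma signalling, all tested, edgeR called 3 higher and 0 lower, as DESeq2 and limma-voom did. Over all genes tested edgeR called 2.15% higher and 1.17% lower. At an unadjusted p under 0.05 edgeR had 5 of the 19 (4 higher, 1 lower), beside 19.2% of all genes tested. The median log2 difference of the 19 was 0.06. Jak2, a kinase of the interferon gamma receptor, was read at 230.4, 267.0 and 237.2 CPM in WT and at 465.7, 378.0 and 310.8 CPM in dKO. The dKO libraries were all higher but spread widely, and Jak2 rose by 0.65 ± 0.14 on the log2 scale (adjusted p = 0.0286 by edgeR). Nfkb1 encodes a subunit of NF-kappaB, whose binding at the GGGATTCCC matches printed in H2-K1 and H2-D1 was not tested. Nfkb1 was read at 154.1, 141.8 and 150.9 CPM in WT and at 195.4, 206.0 and 192.2 CPM in dKO. It rose by 0.41 ± 0.10 (adjusted p = 0.0414), with no overlap. Leaving out WT 3, dKO 1 or dKO 2 ended the call of Jak2 (adjusted p up to 0.143), and leaving out any library but WT 1 that of Nfkb1 (up to 0.161). Ifng itself, named after its values were seen, was read at 141.6, 439.8 and 501.2 CPM in WT and at 110.2, 147.3 and 185.4 CPM in dKO. WT 1 lay within the dKO range, and the log2 difference of -1.29 ± 0.55 was not called (adjusted p = 0.308).

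Over the 10 presentation genes, 6 differences were above and 4 below 0, with a median log2 difference of 0.12. All dKO libraries exceeded all WT libraries in 5 genes (Tapbp, Tap1, Tap2, B2m and Cd74), beside 13.2% of all genes tested, and fell below them in 1 (H2-Ab1), beside 11.7%. Together 6 of the 10 did not overlap, beside 25% of all genes, and 1 of these passed the filter only through the group in which it was higher. Over the 66 tested genes of the other 4 lists, edgeR called 4 higher and 1 lower, beside 2.15% and 1.17% of all genes tested. Of these 66 differences, 44 were above 0 and the median was 0.14. The genes nearest to the mean class I and loading profile, by mean absolute difference of centred log2 values over the 6 libraries among 9512 candidates, were Vars (0.0245), E2f3 (0.0248), Zbtb1 (0.0268), Zc3h10 (0.0277) and Chuk (0.0295). Those nearest to the mean class II profile were Ctla2a (0.101), Gadd45g (0.131), Plk3 (0.161) and Ier5 (0.162). By the same measure Cd74 lay 0.767 and H2-Ab1 0.622 from the class II mean that they helped to make, H2-Aa 0.224, and each of the 3 was farther from it than the 4 genes just named.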

How the data were processed

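CD4 T cells were sorted from the liver, and single-end reads were obtained from their total RNA with a kit that fragments cDNA. Trimming with cutadapt and alignment with Bowtie2 are named in the submitters' processing notes, as are 2 builds (mm10, GRCm39). No source used here states versions, annotation, counting tool or strand setting. Raw read counts by gene symbol, as deposited, were tested. They also deposited a normalised table that its name calls TPM but whose values are CPM. Of 170580 values, 100% returned the deposited count to within 0.01 reads (the design had allowed for TPM). Besides this check, that table served the limma alternatives other than limma-voom and an alternative for the read ratios. A mapping table of totals was not used. Counted reads were 5747744 to 11078184 per library, so that the floor of 3 reads was 0.281 to 0.536 CPM and genes near 1 CPM rest on few reads, counting error alone.

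Genes were filtered by edgeR's filterByExpr (minimum count 10, total 15), scaled by TMM (factors 0.964 to 1.04) and tested by edgeR 4.0.16 under R 4.3.3 (robust quasi-likelihood F-test, group as the only term), with Benjamini-Hochberg adjustment over 15694 genes and a threshold of 0.05. Adjusted p-values are from this test unless another tool is named. CPM in the text are TMM-scaled, and the SE is the log2 difference over the square root of F. Alternatives were other scalings and filters, DESeq2 1.42.0, limma-voom and limma 3.58.1 on log2(CPM + 1) and log2(CPM + 0.1), each library left out, a replicate block, and marker or Xist covariates. Each library was counted once, since all pairs differed by more than counting error (chi-square per degree of freedom 6.1 to 32.5). Log2 read ratios, with no pseudocount (1 read added in an alternative), were compared by exact permutation. Levels per kilobase used the longest coding transcript tagged as principal in the GENCODE annotation of GRCm38, matched by symbol, since the build of the counts is not settled. The procedures were tested on simulated counts.

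The genes and lists were chosen with earlier results of these data known. Named are all 10 genes, every called gene of each list of up to 6 (the 3 with the smallest p, or fewer, where none passed), the 5 genes most alike to each profile with a mean of at least 10 CPM, and a few genes that the text says were chosen once their values were known. Of the marker lists a selection is named, and some genes covered by this rule are left out here.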

Additional observations from a re-analysis of the deposited data

How the results depend on the processing

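Over 20 alternatives, 438 single-gene values were computed for the 22 genes followed, of which 380 kept direction and side of the threshold, 38 lost the call, 13 gained it and 7 turned sign. The count of presentation genes called higher (1) was 2 with no low-count filter and 0 with the replicate block, the macrophage covariate or the dendritic cell covariate, and 0 to 1 with a library left out. The count called lower (0) was 1 with no filter, in DESeq2 and with the macrophage covariate, and 0 to 2 with a library left out. Of the pathway genes, 4 higher became 2 (macrophage covariate), 0 (dendritic cell covariate) and 8 (Xist covariate), 1 to 5 with a library left out, and 1 lower became 0 under these 3 covariates, 0 to 4 with a library left out. Over all genes, 337 higher became 756 with no filter and 1 with the dendritic cell covariate, 90 to 447 with a library left out, and 183 lower became 560, 2 and 42 to 378. The cause was not tested. The dendritic cell covariate is built from 6 genes, of which Itgax, Xcr1 and Sirpa were lower in all dKO libraries, Zbtb46 higher, and Flt3 and Siglech overlapped, and the macrophage covariate rests on 1 gene.

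Signs turned for H2-K1 without WT 1 (-0.0684 to 0.109 over libraries left out), H2-D1 without WT 2 (-0.169 to 0.0475) and with Xist (0.143), Nlrc5 with Xist (0.0379), H2-Aa with the dendritic cell covariate (0.559) and Xist (1.63), and H2-Ab1 with the dendritic cell covariate (0.905), none of them called. The Tapbp difference was 0.396 to 0.47 throughout and called in 11 of 20 alternatives. The read ratios kept their sign, with log2 differences over libraries left out of 0.641 to 2.57 (H2-Aa to H2-Ab1), 2.93 to 4.32 (Cd74 to H2-Ab1), 0.0651 to 0.125 (H2-K1 to H2-D1), 0.114 to 0.284 (Tap1 to Tap2) and 0.132 to 0.285 (B2m to both heavy chains).

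Replicate numbers did not pair the libraries: same-numbered libraries had correlations of 0.0581, 0.0256 and -0.0863 between their deviations, and only number 1 correlated best with its own. With the replicate block 307 genes were called higher and 184 lower, Tapbp had an adjusted p of 0.0539 and Nfkb1 of 0.0706. Depth limits H2-Aa and H2-Ab1, at 94 and 127 reads in all, and H2-Aa had no value without WT 2 or WT 3.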
